A study of Mus musculus with 6 samples.

Results

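The cytosolic ribosomal protein genes encode the proteins of the ribosome outside the mitochondrion. They were followed in megakaryocytes, the platelet-forming giant cells of the bone marrow. The samples were megakaryocytes sorted from the bone marrow of female C57 mice with acute myeloid leukaemia (AML) induced by MLL-AF9, a fusion oncogene, and from the marrow of healthy female C57 control mice. The gate was high side scatter, high CD41 and a DNA content of at least 8N. Each group had 3 arrays, numbered 1 to 3 and called biological replicates by the labels. The sources used here do not give the age of the mice or how the leukaemia was established. Nothing says which animals gave which array, so the p-values below speak only for the spread among these arrays, which may be technical.

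The rule takes genes by their names, and it was set with earlier results of these data known. Array rows with a single gene symbol that begins with Rpl or Rps and a digit were taken, together with Rplp0, Rplp1, Rplp2, Rpsa and Fau. S6 kinase genes and symbols marked as pseudogenes were left out. This gave 46 genes on 53 rows, of 30063 named genes in all. A gene with several rows was followed on its brightest one, judged over all 6 arrays. Of a standard set of 79 cytosolic ribosomal protein genes, 34 were among the 46. Another 37, among them Rplp1, Rplp2, Rps6, Rpl3 and Rpl5, are named only on rows that carry several symbols, and 8 are on neither kind of row here. Of the 46 genes, 16 encode small subunit proteins, 18 encode large subunit proteins, 6 are paralogs with names of their own, 5 are retrogenes or other copies, and 1, Rps19bp1, encodes a partner of RPS19 and no ribosomal protein.

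A ribosome is built from ribosomal RNA and a large set of proteins, most of them present in a single copy in each particle, in a small subunit that reads the mRNA and a large subunit that joins amino acids. The mRNAs of these proteins begin with a terminal oligopyrimidine (TOP) tract, a C followed by a run of C and T, through which mTOR signalling and the RNA-binding protein LARP1 control their translation together. Shortage of single ribosomal proteins disturbs blood formation in people: RPS19 is the gene most often mutated in Diamond-Blackfan anaemia, and loss of RPS14 marks a form of myelodysplastic syndrome. Values below are deposited log2 array values, differences are AML minus control on that scale, and ± is the SD over n = 3 arrays. Rows carry different probes, so a level does not give the amount of one gene against another, and brightness is used only to pick examples and as a rough guide to background.

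In the sorts of AML mice 2 of the 46 genes rose and 0 fell, or 4.35%, against 10.7% of all genes past the same threshold, an adjusted p of 0.05 in limma. Among all genes 4.49% were higher and 6.25% lower. At an unadjusted limma p of 0.05, 6 of the 46 were higher and 0 lower. In a separate limma fit over the array's 65770 transcript cluster rows, 12141 were higher and 6289 lower at that threshold. Many of those rows carry no single gene symbol, so these counts are not directly comparable with those of the named genes. Rpl12, a protein of the large subunit near the stalk that binds translation factors, rose 1.42-fold (95% CI 1.17 to 1.73, limma adjusted p = 0.0427). Its row carries chromosome 10, while Rpl12 lies on chromosome 2, and signal of the gene and its copies cannot be divided on it. A chromosome 2 row that also names Snora65 differed by +0.15 in the fit over rows (limma adjusted p = 0.282). Rpl6l, a copy of Rpl6 that RefSeq lists as a pseudogene, rose 1.35-fold (95% CI 1.18 to 1.54, limma adjusted p = 0.0200). The other 44 genes did not pass (limma adjusted p 0.0601 to 0.997).

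The differences were small throughout. They ran from -0.13 to +0.51 with a median of +0.12, and 43 of the 46 were above 0. Over all genes the median was +0.11 and 68.8% were above 0, so that relative to all genes the ribosomal protein median was +0.01. This depended on the genes compared. With genes below the median level left out, the median was +0.12 over the 44 members left and +0.03 over all genes left. No member differed by 1.5-fold or more, which 7.93% of all genes did. The limma 95% intervals, which are not adjusted for the number of genes, lay within 1.5-fold of no difference in 43 of the 46, or 93.5%, against 73.8% of all genes. The 3 whose interval reached 1.5-fold were Rpl12, Rpl6l and Rpsa.

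**Figure D1:**
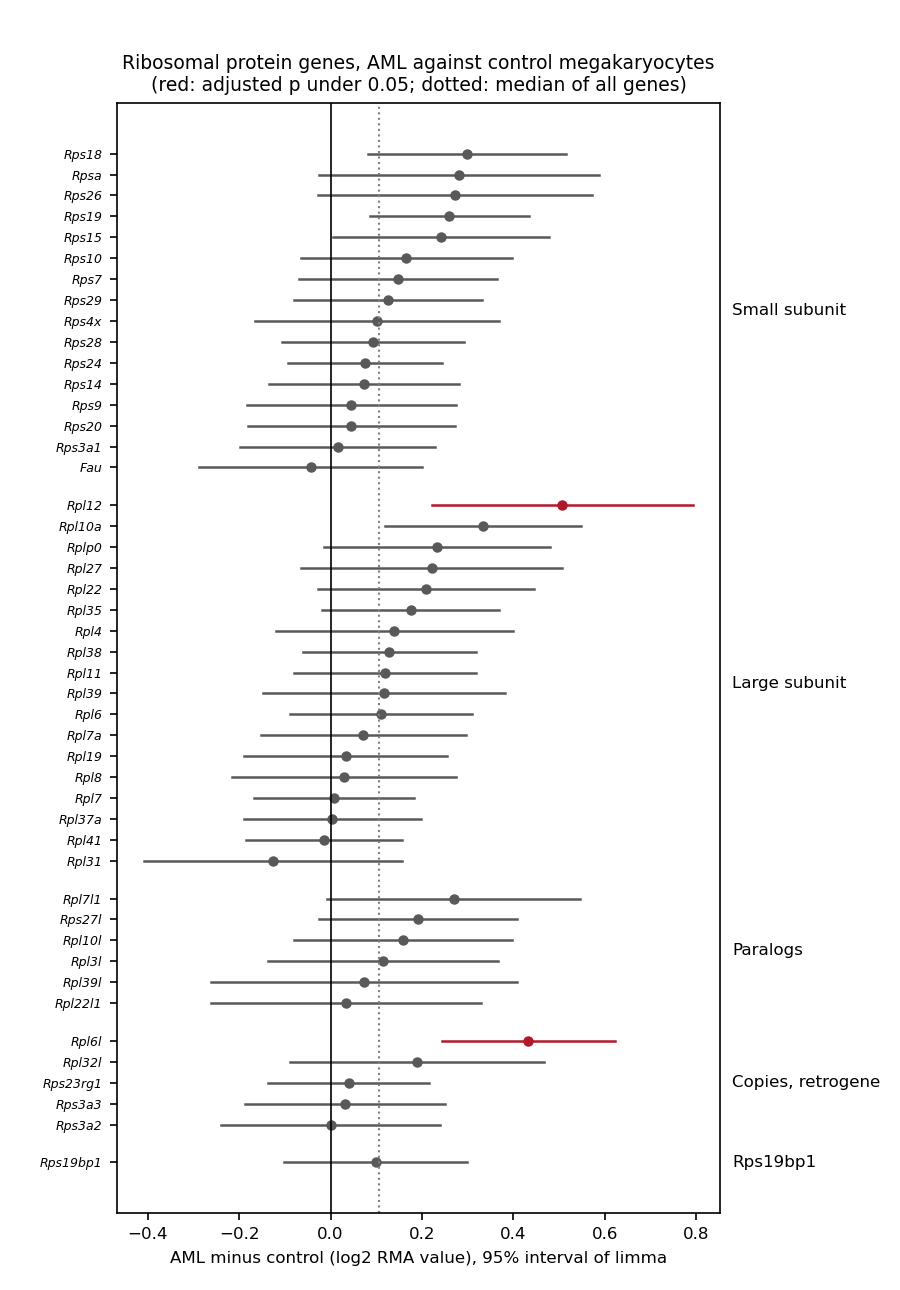
Differences between AML and control for the 46 ribosomal protein genes, by role from top to bottom, on the log2 scale, with limma's 95% intervals (3 AML and 3 control arrays). Red marks Rpl12 and Rpl6l, the genes past an adjusted p of 0.05, and the dotted line is the median over all genes, +0.11. Only Rpl31, Fau and Rpl41 lie below 0.

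The genes moved together from array to array, and within each group their median deviation spanned more than the median difference between the groups, +0.12. Of the 46 genes, 39 were highest on AML array 2 among the AML arrays and 39 were lowest on AML array 3. Of the control arrays, array 3 held the highest value for 42 genes and array 1 the lowest for 32. The median deviation of the genes from their group mean was +0.02, +0.10 and -0.13 on AML arrays 1, 2 and 3, and -0.07, -0.03 and +0.10 on control arrays 1, 2 and 3. Over all genes, AML array 3 held the lowest AML value for 40.5% and control array 3 the highest control value for 36.1%. Among the 2976 other genes in the brightest decile, where 31 of the 46 also lie, these shares were 64.4% and 71.7%. AML array 2, highest for 84.8% of the ribosomal protein genes, was highest for 37.4% of those bright genes and 33% of all genes, and the bright genes were most often highest on AML array 1 (42.1%).

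The groups therefore overlapped for most members. The 3 AML values lay above all 3 control values in 6 genes, or 13%, and below them in 0, against 41.3% of all genes that were apart in either direction. The 6 were Rpl12, Rpl6l, Rpl10a, Rps15, Rps18 and Rps19. Without AML array 3 the AML values lay above the controls in 27 genes (37.7% of all genes), and without control array 3 in 25 (33.4% of all genes). The count of members that passed moved with that of all genes. It was 4 with AML array 3 left out, where 12% of all genes passed, and 1 with control array 1 left out, where 9.75% did. It was 0 with array 1 or 2 of the AML group left out (6.45% and 4.9% of all genes), and with array 2 or 3 of the control group left out (3.22% and 3.52%).

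**Figure D2:**
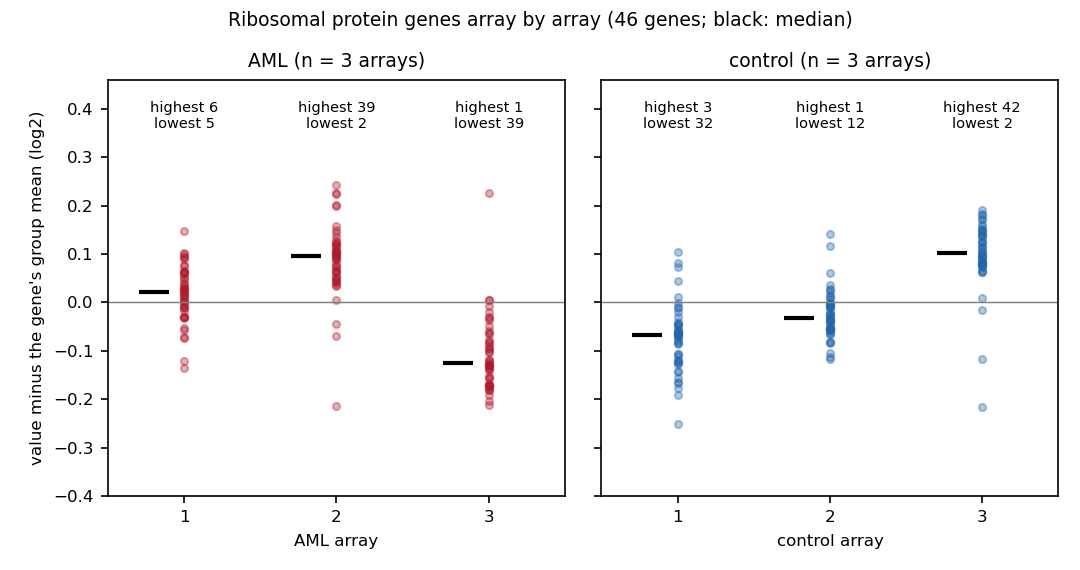
Each point is 1 of the 46 ribosomal protein genes, shown as its value on an array minus its mean over the 3 arrays of that group (log2), with AML arrays on the left and control arrays on the right. The black bar is the median, and the printed counts give how many genes had their highest or lowest value of the group on that array. AML array 2 was high and AML array 3 low, and control array 3 was high.

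The count also depended on the scaling of the arrays. Quantile normalization of the named genes left a median difference over all genes of +0.01 and one of +0.19 over the ribosomal protein genes, with 11 of them higher past the threshold, against 4.6% of all genes higher. Cyclic loess gave +0.01 and +0.14, with 8 of them higher, against 4.09% of all genes. Median centring moved the median over all genes to -0.01 and that of the ribosomal protein genes to -0.005, with 21 of the 46 above 0 and 1 higher past the threshold, against 1.68% of all genes. With quantile normalization the groups were apart upward in 28 of the 46 genes, against 17.1% of all genes, and with median centring in 2, against 10.2%. In none of these 3 fits did a member pass downward. Other genes in the brightest decile had a median difference of -0.05, with 41.9% of them above 0. Past the threshold, 2.69% of them were higher and 15.4% lower. The 31 ribosomal protein genes in that decile had a median of +0.13, with 29 above 0.

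RefSeq promoters (assembly GRCm38.p6, 250 bases before to 50 after the annotated start) were found for 38 of the 46 genes. Rpl6l, Rpl7, Rpl8, Rps14, Rps20, Rps29, Rps3a2 and Rps3a3 have no entry. The letters at the start are shown because the TOP tract is the feature that these mRNAs are known to share. The windows below span 15 bases on either side of the start, so that the 16th base is the first of the transcript, on the gene's strand, and capitals mark a C followed by at least 4 C or T that begins within 5 bases of it.
Fau (chr19:6057932-6057961, + strand): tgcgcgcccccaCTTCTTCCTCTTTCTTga
Rps18 (chr17:33955651-33955680, - strand): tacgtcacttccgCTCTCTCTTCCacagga
Rps10 (chr17:27635230-27635259, - strand): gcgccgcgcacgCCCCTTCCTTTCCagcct
Rpl38 (chr11:114668565-114668594, + strand): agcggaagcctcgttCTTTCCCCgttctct
Rpl35 (chr2:39005117-39005146, - strand): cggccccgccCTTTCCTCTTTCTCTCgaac
Rpl12 (chr2:32961697-32961726, + strand): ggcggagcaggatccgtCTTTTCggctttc

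Exactly at the annotated start, such a tract was found on the sense strand of 6 of the 46 promoters of these genes (several genes have more than 1), or 13%, against 2.51% of all 32851 promoters. The genes were Fau, Rps18, Rps10, Rpl38, Rpl35 and Rpl32l. Within 5 bases of the start it was found in 39.1%, against 18.3% of all promoters, and Rpl12 is among these. Annotated starts can be off by some bases, and a match is a description of letters only. The 6 genes with the tract at the start had a median difference of +0.17, with 0 past the threshold, and the other 32 had one of +0.12, with 1 past the threshold. Split by a tract within 5 bases, the order of the medians turned: the 17 genes with it had +0.12, with 1 past the threshold, and the 21 without it +0.14, with 0.

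Of the small subunit genes, 0 of 16 passed in either direction (adjusted p 0.0666 to 0.908), and their median difference was +0.11. Rps19, the anaemia gene named above, read 6.82, 6.83 and 6.83 on the AML arrays and 6.50, 6.53 and 6.67 on the control arrays. The AML values lay above all control values, and the difference of +0.26 (95% CI 0.09 to 0.43) did not pass (limma adjusted p = 0.0666). Over the alternatives run, that adjusted p lay between 0.0225 and 0.353. Rps18, a protein of the head of the small subunit, read 7.39, 7.40 and 7.19 in AML and 6.92, 7.07 and 7.11 in control. Its groups did not overlap either, with a difference of +0.30 (95% CI 0.08 to 0.51) that did not pass (limma adjusted p = 0.0801).

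Rps14 read 6.75, 6.74 and 6.59 on the AML arrays and 6.50, 6.65 and 6.72 on the control arrays. These ranges overlapped, and the difference was +0.07 (95% CI -0.14 to 0.28, limma adjusted p = 0.567). Rpsa, a protein of the small subunit also known as a laminin receptor, averaged 9.43 ± 0.18 in AML and 9.14 ± 0.19 in control (limma adjusted p = 0.176). Rps26, a Diamond-Blackfan anaemia gene at the mRNA exit, had one of the widest spreads among AML arrays, 11.42 ± 0.22 against 11.15 ± 0.13 in control (limma adjusted p = 0.179). Another row of Rps26, carrying chromosome 8, had all AML values above the controls and differed by +0.35 in the fit over rows (limma adjusted p = 0.152). Its dim row carrying chromosome 12 differed by +0.11 (limma adjusted p = 0.825). Rps4x, the X-linked form of this gene, averaged 10.77 ± 0.18 in AML and 10.67 ± 0.12 in control. Fau encodes RPS30 fused to a ubiquitin-like protein and is the only small subunit gene here with a difference below 0. It read 10.02, 10.21 and 9.99 in AML and 9.99, 10.09 and 10.28 in control, a difference of -0.04 (95% CI -0.29 to 0.20) that was above 0 under quantile normalization and without control array 3. Rps15, at the decoding end of the head, read 10.24, 10.30 and 10.18 in AML and 9.83, 9.99 and 10.17 in control, with the lowest AML and highest control array nearly level (limma adjusted p = 0.146). The 8 others, Rps3a1, Rps7, Rps9, Rps10, Rps20, Rps24, Rps28 and Rps29, had differences of +0.02 to +0.17 with overlapping groups.

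Of the large subunit genes, 1 of 18 rose and 0 fell, and the median difference was +0.12. On its chromosome 10 row, Rpl12 read 11.04, 11.10 and 10.80 on the AML arrays and 10.30, 10.48 and 10.65 on the control arrays. All AML values were above all control values. The call held when AML array 3 was left out and was lost when any of the other 5 arrays was (limma adjusted p 0.0684 to 0.140), and under median centring (limma adjusted p = 0.126). Rpl10a, a protein of the stalk by the tRNA exit site, read 7.96, 8.01 and 7.79 in AML and 7.48, 7.61 and 7.67 in control. Its difference of +0.33 (95% CI 0.12 to 0.55) did not pass (limma adjusted p = 0.0601), although the groups did not overlap.

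Rplp0, the base of the stalk that recruits elongation factors, read 10.27, 10.32 and 10.04 in AML and 9.86, 9.97 and 10.11 in control. AML array 3 fell inside the control range, and the difference was +0.23 (95% CI -0.02 to 0.48, limma adjusted p = 0.171). Rpl11, which with RPL5 binds a small ribosomal RNA and, when free, the p53 regulator MDM2, averaged 6.75 ± 0.11 in AML and 6.63 ± 0.06 in control (limma adjusted p = 0.334). Rpl22, which is needed in mice for the development of certain T cells, averaged 7.13 ± 0.17 in AML and 6.92 ± 0.07 in control (limma adjusted p = 0.189). Rpl27 averaged 11.73 ± 0.20 in AML and 11.51 ± 0.13 in control, and Rpl35 12.25 ± 0.09 and 12.07 ± 0.08. Rpl39, a small protein of the exit tunnel, averaged 7.40 ± 0.13 in AML and 7.28 ± 0.17 in control. Rpl7 averaged 6.98 ± 0.06 in AML and 6.97 ± 0.07 in control. The differences of Rpl4, Rpl6, Rpl7a, Rpl8, Rpl19, Rpl37a and Rpl38 lay between 0.004 and +0.14, again with overlapping groups.

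Besides Fau, Rpl31 and Rpl41 had differences below 0. Rpl31, a protein beside the exit tunnel, read 6.26, 6.12 and 6.12 in AML and 6.04, 6.41 and 6.43 in control, a difference of -0.13 (95% CI -0.41 to 0.16, limma adjusted p = 0.466). Control array 1 lay below all AML arrays and the other two control arrays above them. Rpl41, which encodes a very short basic peptide, averaged 12.54 ± 0.05 in AML and 12.55 ± 0.07 in control, and its sign was positive on its other row.

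**Figure D3:**
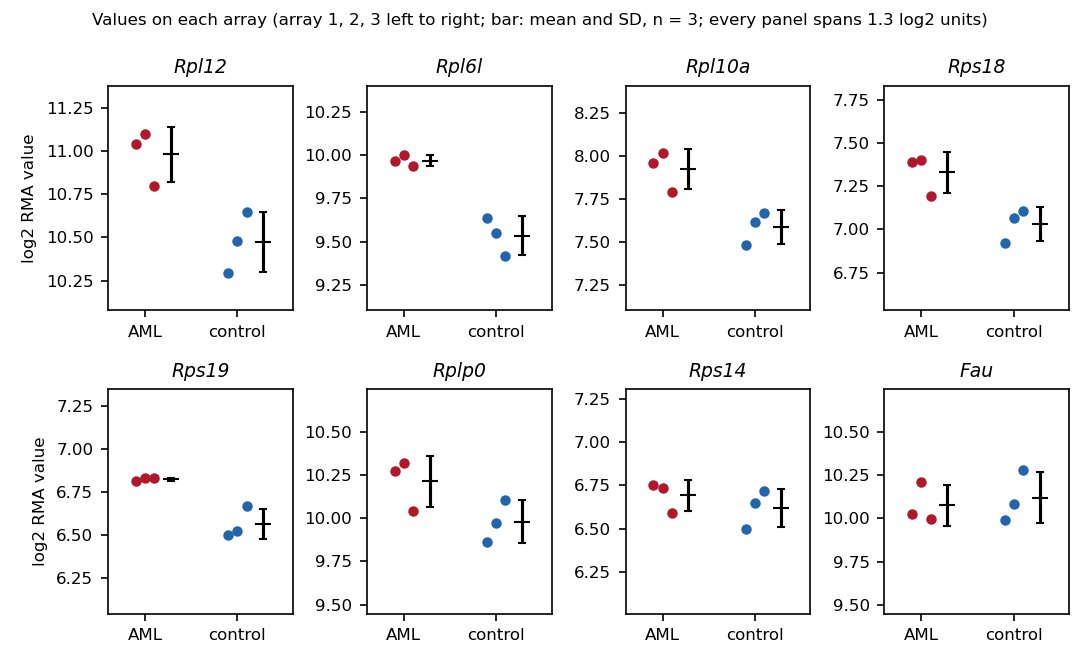
Values of 8 ribosomal protein genes on each array (log2 RMA values, arrays 1 to 3 from left to right within a group, black bars for mean and SD, n = 3 per group), with AML left of control and the same span in each panel. The groups are apart in Rpl12, Rpl6l, Rpl10a, Rps18 and Rps19 and overlap in Rplp0, Rps14 and Fau, and AML array 3 is the lowest AML array in all but Rps19.

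Of 19 genes listed for Diamond-Blackfan anaemia, 11 were among the members, and 0 of these 11 passed in either direction (median difference +0.15, adjusted p 0.0666 to 0.466).

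Of the 6 paralogs 0 passed, with a median difference of +0.14. Rps27l, a p53-induced relative of Rps27, averaged 9.02 ± 0.12 in AML and 8.83 ± 0.10 in control (limma adjusted p = 0.188). Rpl22l1, the partner that compensates for Rpl22 in mice, averaged 8.95 ± 0.19 in AML and 8.92 ± 0.16 in control (95% CI of the difference -0.26 to 0.33). Rpl7l1, a relative of Rpl7, averaged 7.91 ± 0.17 in AML and 7.64 ± 0.15 in control (limma adjusted p = 0.161). Rpl10l, a testis form of Rpl10, averaged 6.06 ± 0.09 in AML and 5.90 ± 0.16 in control. The muscle form Rpl3l, at 5.24 ± 0.19 in AML and 5.12 ± 0.05 in control, and the testis form Rpl39l, at 5.10 ± 0.22 in AML and 5.02 ± 0.19 in control, were not shown to be above background. Their means lay below 5.51, the 95th percentile over 1718 olfactory and vomeronasal receptor genes, a family not used in blood cells. The sign of Rpl3l and Rpl39l turned under quantile normalization, median centring and cyclic loess.

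Of the 5 copies, 1 rose and 0 fell. Rpl6l read 9.96, 10.001 and 9.94 on the AML arrays and 9.64, 9.55 and 9.42 on the control arrays, with all AML values higher. Its call held when AML array 3 or control array 1 was left out and was lost when any of the other 4 arrays was (limma adjusted p 0.0581 to 0.0870). The gene Rpl6 itself averaged 7.79 ± 0.11 in AML and 7.68 ± 0.07 in control, a difference of +0.11 (limma adjusted p = 0.371). Whether the differences of Rpl6l and Rpl6 are unequal was not tested. Rps3a2, a copy of Rps3a1 listed as a pseudogene, averaged 12.18 ± 0.16 in AML and 12.18 ± 0.09 in control, and Rps23rg1, a retrogene of Rps23, averaged 6.88 ± 0.06 and 6.84 ± 0.07. Rps19bp1 averaged 7.69 ± 0.08 in AML and 7.60 ± 0.11 in control (limma adjusted p = 0.422).

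Ribosomal protein genes have many processed copies in the mouse genome, and signal from a gene and its copies cannot be divided on these rows. A row's identifier carries a chromosome, which was that of the gene in RefSeq for 99.6% of 30434 named rows. For 7 of the 46 genes, Fau, Rpl7a, Rpl12, Rpl27, Rpl31, Rpl35 and Rpl41, the kept row carries another chromosome. Rpl12 lies on chromosome 2 in RefSeq and its kept row carries chromosome 10. In a fit over all 65770 transcript cluster rows, of which 5.96% passed (1.99% higher and 3.97% lower), this row differed by +0.51 (limma adjusted p = 0.0619). A row naming Rpl12 and Gm9396 differed by +0.49 (limma adjusted p = 0.0642), and the pseudogene rows Rpl12-ps1 by +0.34 (limma adjusted p = 0.0730) and Rpl12-ps2 by +0.42 (limma adjusted p = 0.0397). The row on chromosome 2, which names Rpl12 together with the small nucleolar RNA Snora65, averaged 7.92 ± 0.07 in AML and 7.77 ± 0.07 in control, a difference of +0.15 (limma adjusted p = 0.282).

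For the 5 genes with a second row on their own chromosome, the differences of both rows stood close together. They were +0.22 on the kept row and +0.24 on the own-chromosome row for Rpl27, +0.18 and +0.16 for Rpl35, +0.07 and +0.04 for Rpl7a, -0.04 and -0.03 for Fau, and -0.01 and +0.02 for Rpl41. None of these rows passed. Rpl12 and Rpl6l have no second row that names them alone, so reading these 5 genes on their own-chromosome rows, an alternative chosen after seeing the data, could not bear on either call. Of 53 rows naming a ribosomal protein gene with other symbols, 0 passed in the limma fit over rows, with a median difference of +0.09. Up to 2 passed under the alternatives run. At an unadjusted p of 0.05 in that fit, 8 of the 53 were higher and 2 lower, against 12141 and 6289 of all 65770 rows. Of 203 rows of ribosomal protein pseudogenes 1, Rpl12-ps2, passed, with a median of +0.08, against +0.11 over all rows.

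Genes that build ribosomes were followed beside their proteins, in lists written by hand with earlier results of these data known. The shares of these lists are therefore a description and no test. Of 142 measured genes of 7 lists, 18 rose, or 12.7%, and 2 fell, against 4.49% of all genes higher and 6.25% lower. In the same sorts the median difference of 11 stem and progenitor markers was +0.57, with 2 of them, Cd34 and Hoxa10, higher past the threshold. Flt3, Hlf and Sox4 differed by -0.27, -0.13 and -0.05 and did not pass, and the other markers were above 0. The part of stem and progenitor cells in the values of these lists was not tested. Of 35 genes that process ribosomal RNA precursors, 8 rose and 0 fell, with a median difference of +0.28. Dkc1, the pseudouridine synthase dyskerin, read 8.18, 8.22 and 7.73 on the AML arrays and 6.68, 6.97 and 7.15 on the control arrays. The AML values were all higher, by 2.16-fold on average (limma adjusted p = 0.0103), and Dkc1 passed with any single array left out (limma adjusted p 0.00428 to 0.0483). Nop16, a nucleolar assembly factor, rose by +0.63 and Nop2, a ribosomal RNA methyltransferase, by +0.64. The count of 8 became 13 when AML array 3 was left out, and 1 or 2 when any other single array was.

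Of 32 genes of large subunit assembly, 6 rose and 1 fell, with a median of +0.29. Rrp15 rose by +0.61, Nle1 by +0.41 and Mrto4, which holds the place of RPLP0 during assembly, by +0.37. Sbds, which helps release the last assembly factor from the large subunit, fell to 7.30 ± 0.10 in AML, against 7.68 ± 0.03 in control. This call held without AML array 3 and was lost without any other single array (limma adjusted p 0.0505 to 0.114) and under quantile normalization (limma adjusted p = 0.0690). The 6 rises became 11 when AML array 3 was left out, and 0 or 1 when any other single array was.

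The remaining lists held few changes. Of 11 genes of RNA polymerase I transcription 0 passed, and of 9 genes for chaperones and import of ribosomal proteins 1, Grwd1, rose by +0.46. Of 17 translation factor and other genes with TOP mRNAs 0 rose and 1, the intermediate filament gene Vim, which also marks many non-megakaryocytic cells, fell by 0.60. Of 20 initiation factors 1, Eif2b3, rose by +0.51. Of 18 regulators of TOP mRNAs and mTOR, 2 rose and 0 fell: Mlst8, a subunit of the mTOR complexes, by +0.38, and Myc, a transcription factor that drives ribosome production. Myc read 8.43, 8.42 and 7.58 in AML and 7.26, 7.25 and 7.19 in control, all AML values being higher and AML array 3 much the lowest of them. The calls of Grwd1, Eif2b3, Mlst8 and Myc held when AML array 3 was left out and ended with any other single array left out (limma adjusted p 0.0647 to 0.142), and leaving out control array 2 or 3 ended that of Vim (limma adjusted p 0.0653 and 0.0622).

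**Figure D4:**
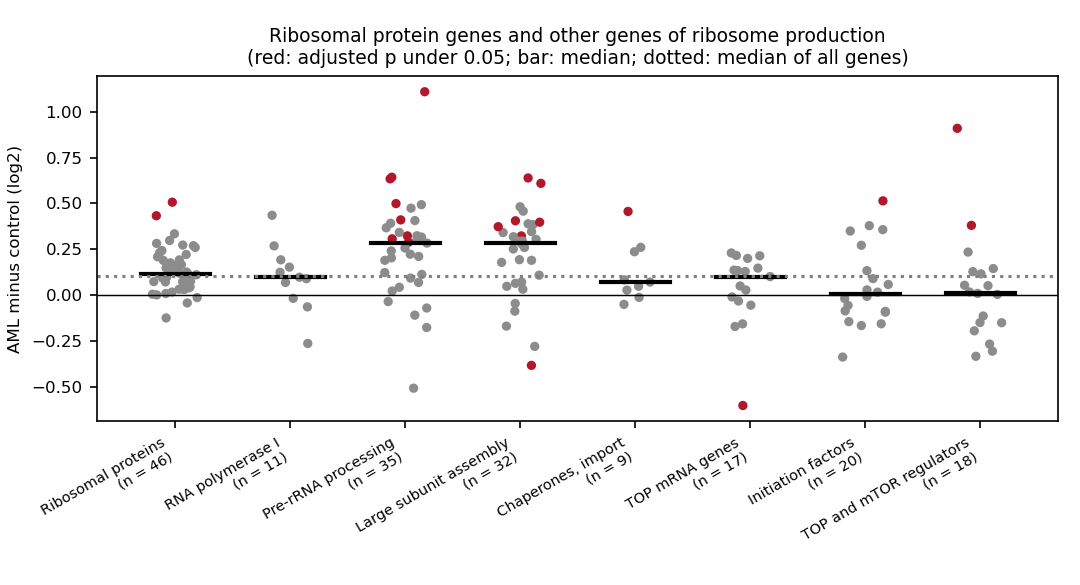
Differences between AML and control (log2) for the 46 ribosomal protein genes and for 7 lists of other genes of ribosome production and translation, 1 point per gene, with the median as a black bar. Red points passed an adjusted p of 0.05 in limma, and the dotted line is the median over all genes, +0.11. The medians of pre-rRNA processing and large subunit assembly, +0.28 and +0.29, stand above it, and that of the ribosomal proteins, +0.12, close to it.

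The labelled cell type was checked on 18 measured megakaryocyte markers, of which 0 passed in limma in either direction. Their median level was 8.63 to 9.34 on the AML arrays and 8.72 to 9.01 on the control arrays, with Ppbp brightest (12.23 ± 0.16 in AML and 12.37 ± 0.17 in control) and Pf4 next (11.98 ± 0.22 in AML and 12.09 ± 0.12 in control). Markers of other cells differed between the sorts. Of 14 monocyte and macrophage genes 10 fell and 0 rose, with list medians of 6.82 to 7.34 in AML and 8.15 to 8.56 in control. The brightest, Ly6c2 and Cd68, were not among those that passed (limma adjusted p 0.187 and 0.0516). Of 15 neutrophil genes (Ngp and Retnlg brightest) 10 fell and 1 rose, with list medians of 8.73 to 9.14 in AML and 9.96 to 10.31 in control. The gene that rose was Ctsg, by +0.95 (limma adjusted p = 0.0251). Mpo, Elane, Prtn3 and Mmp9 had differences of +0.05 to +0.39 and did not pass. Of 14 B and plasma cell genes (Ighm and Cd79b brightest) 7 fell and 0 rose. Of 13 eosinophil, basophil and mast cell genes (Prg2 and Prg3 brightest) 7 fell and 0 rose. Of 9 erythroid genes (Epor and Hemgn brightest) 2, Alas2 and Slc4a1, fell and 0 rose. Prg3, Epor and Hemgn did not pass (limma adjusted p 0.164, 0.323 and 0.0649). Of 11 T and NK cell genes (Nkg7 and Cd4 brightest) 1, Ncr1, rose and 0 fell. Ncr1 averaged 4.71 in AML and 4.37 in control, below the level of 5.51 used above for background. Among the genes that fell, Ms4a1 (3.97 in AML and 5.16 in control) and Ms4a2 (3.77 in AML and 4.91 in control) also lay below that level. Of 11 stem and progenitor genes (Myb and Meis1 brightest) 2, named above, rose and 0 fell. No marker is at 0, since the log2 array scale has no true zero. The part of these cells in the ribosomal protein values was not tested. In sorted bulk samples, fewer cells of a type and less RNA per cell cannot be told apart.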

How the data were processed

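Per the labels' protocols, cells were sorted into Trizol and biotinylated cDNA from 250 ng of total RNA was hybridised to an Affymetrix array. The authors deposited log2 expression values made with RMA (version not given), per the submitters' processing notes. RMA gives all arrays a similar distribution, so a shift common to most genes can be hidden. The named genes were still not level, with array medians of 5.29 to 5.32 in AML and 5.16 to 5.24 in control. The sources used here do not give the array's genome build.

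Rows with a single symbol were named through the platform's annotation and a RefSeq table (GRCm38.p6), and each gene was read on its brightest row over all arrays, giving 30063 genes. No dim genes were left out. limma (lmFit and eBayes, without trend) gave two-sided tests of AML against control, called at a Benjamini-Hochberg adjusted p of 0.05 over all genes, and was repeated on 65770 transcript cluster rows. Genes to be named were members listed by name, those past the threshold, the largest differences, the brightest, dimmest and most variable members, and up to 3 genes per direction of each pathway list. Rps15, Rpl6, Rpl7a and other members outside that rule were named after their values were seen. The members and lists were chosen with earlier results of these data known. The alternatives were a replicate block, a mean-variance trend, array weights, cyclic loess, median centring, quantile normalization, leaving out dim genes, the mean of a gene's rows and leaving out each array. Tested on data simulated from these 30063 genes with independent noise, limma called 45 of 50 genes set to a 2-fold change, 18 of 50 set to 1.5-fold and 1 of 50 set to 1.25-fold. Only 50 genes were changed at each fold, far fewer than the 3230 that passed in the data. The adjusted threshold was harder to reach there, so these counts may understate recovery in the data. The number of arrays limits the precision. The tools were matplotlib 3.10.9, numpy 2.4.6, pandas 2.3.3, Python 3.11.15, limma 3.58.1 and R 4.3.3.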

Additional observations from a re-analysis of the deposited data

How the results depend on the processing

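With 3 arrays a group, changes well under 1.5-fold were rarely recovered in simulated data, and most members differed by less than that. Far fewer genes were changed in that simulation than passed in the data, so it may understate recovery in the data. Differences shared by all arrays of a group cannot be separated from the scaling. The labels do not say that equal replicate numbers pair the arrays, and the main fit did not pair them. Deviations from the group means correlated at -0.36, 0.142 and -0.291 for numbers 1, 2 and 3 over 30063 genes. Such correlations cannot settle whether arrays with equal numbers were prepared together. With the replicate number as a block, 3.55% of all genes passed (0.685% higher) and 0 ribosomal protein genes, Dkc1 stood at a limma adjusted p of 0.0507, and the higher genes numbered 0 in pre-rRNA processing, 0 in large subunit assembly (0 lower), 0 in initiation factors, 0 among TOP and mTOR regulators, 0 among chaperones and 0 among pseudogene rows.

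Array weights called 26.1% of all genes (16.1% higher) and gave 10 ribosomal protein genes higher, 2 in RNA polymerase I, 20 higher and 1 lower in pre-rRNA processing, 18 in large subunit assembly, 1 TOP mRNA gene, 5 higher and 1 lower among initiation factors, 3 lower regulators, 3 chaperones, 2 rows naming several symbols and 25 pseudogene rows. Quantile normalization gave 11 ribosomal protein genes, 28 without overlap, 16 in pre-rRNA processing, 13 higher and 0 lower in large subunit assembly, 2 TOP mRNA genes, 5 initiation factors, 2 chaperones and 2 pseudogene rows. Cyclic loess gave 8, 28 without overlap (16.3% of all genes were apart upward), 13, 13, 2, 5, 2 and 3 in these sets. Median centring gave 1 ribosomal protein gene, and 2 without overlap above and 2 below the controls (10.2% and 20.6% of all genes). It gave 1 in pre-rRNA processing, 1 in large subunit assembly, 0 initiation factors, 0 higher and 2 lower regulators and 0 chaperones. Without genes below the median level, 4 of the 44 ribosomal protein genes left were higher, against 8.25% of all genes in that fit. It gave 1 higher in RNA polymerase I, 1 lower in pre-rRNA processing and 12 in large subunit assembly. It also gave 2 initiation factors, 1 lower regulator, 1 row naming several symbols and 5 pseudogene rows.

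Leaving out 1 array gave 0 to 4 ribosomal protein genes past the threshold, against 0.615% to 5.45% of all genes higher. It gave 6 to 27 without overlap above the controls (30.8% to 40.1% of all genes) and 0 to 1 below (14.1% to 17%). Pre-rRNA processing had 1 to 13 higher and 0 to 1 lower, and large subunit assembly 0 to 11 higher and 0 to 1 lower. RNA polymerase I had 0 to 1, TOP mRNA genes 0 to 1 lower, initiation factors 0 to 2, regulators 0 to 2 and chaperones 0 to 1. Rows naming several symbols had 0 to 1 and pseudogene rows 0 to 2. The median difference of the ribosomal protein genes was 0.07 to 0.18 then.

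The sign of some differences near 0 turned, all short of the threshold; the cause was not tested. Median centring gave -0.00118 for Rpl11, -0.0864 for Rpl22l1, -0.00441 for Rpl39, -0.0474 for Rpl39l, -0.00546 for Rpl3l, -0.112 for Rpl7, -0.0477 for Rps14, -0.0220 for Rps19bp1, -0.0809 for Rps23rg1, -0.120 for Rps3a2 and -0.0190 for Rps4x. Quantile normalization gave +0.0347 for Fau, -0.0539 for Rpl39l, -0.0167 for Rpl3l and -0.0555 for Rps3a2. Cyclic loess gave -0.0570 for Rpl39l, -0.00663 for Rpl3l and -0.0395 for Rps3a2, and array weights -0.0422 for Rpl39l and +0.00903 for Rpl41. The mean of a gene's rows gave +0.00179 for Rpl41 and the own-chromosome row, chosen after seeing the data, +0.0178 for Rpl41. Leaving out 1 array gave -0.111 to +0.0374 for Fau, -0.0663 to +0.126 for Rpl22l1, -0.0395 to +0.180 for Rpl39l, -0.0450 to +0.0224 for Rpl41, -0.0208 to +0.0475 for Rpl7 and -0.0741 to +0.0869 for Rps3a2.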
